A study of Gallus gallus with 2 samples.

Results

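The genes described here encode the nuclear part of the mitochondrial respiratory chain in the chicken, with the proteins that help to assemble it. They were chosen by name: every chicken probe set with a single gene symbol that begins with NDUF, SDH followed by A to D, UQCR, COX followed by a number, or ATP5. This gave 87 of 13008 genes and 154 of 27166 probe sets with 1 symbol. By textbook function, 64 of the genes encode structural subunits and 21 encode assembly factors. The other 2, COX7A2L and ATP5S, share only the prefix, since the first is a supercomplex factor and the second is no core part of ATP synthase. The rule itself uses names only.

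Expression was measured on an Affymetrix chicken array, with 1 sample in each of 2 groups. Per the labels, the neural tube was electroporated at Hamburger-Hamilton stage (HH) 9 with pSuper-neo-GFP plasmids, and GFP-positive cells were sorted at HH11. The labels also give 2 days of incubation, which does not obviously go together with HH11. The control sample received pSuper-neo-GFP alone, and the knockdown sample received pSuper-neo-GFP plasmids with short hairpin RNAs against Sox4 and Sox11, so cells of both groups carried the plasmid and GFP. The sort selected GFP-positive cells of the dissected tissue, whatever their type, and the sources used here do not give how many embryos were pooled. The series' title names genes regulated by SoxC factors during spinal cord neurogenesis as the question.

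The respiratory chain sits in the inner mitochondrial membrane. Complex I (NADH dehydrogenase, the NDUF genes) and complex II (succinate dehydrogenase, SDH) pass electrons to coenzyme Q, complex III (UQCR) passes them to cytochrome c, and complex IV (cytochrome c oxidase, COX) passes them to oxygen. The proton gradient built on the way drives complex V, ATP synthase (ATP5). Most subunits are encoded in the nucleus and a few in mitochondrial DNA, so the complexes need dedicated factors to be put together. Neural progenitors draw much of their ATP from glycolysis, and neurons rely more on the respiratory chain.

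With 1 array per group there was no replicate spread, nothing below was tested, and "higher" and "lower" describe these 2 arrays. Values are linear signals in arbitrary units, scaled by the authors to a trimmed mean of 1000.3 on each array, and the log2 ratio is knockdown over control. A gene is represented by the probe set of highest mean log2 signal and is called measured when that mean corresponds to a signal of at least 118, the median of chicken probe sets. Background, the 95th percentile of viral probe sets, was 63.6 for the control and 65.8 for the knockdown. SOX4 had a control signal of 6604 and a knockdown signal of 3157, and SOX11 had 4552 and 2790, while a second probe set of each lay below background on both arrays. Labelled RNA also differed between the arrays, since probes at the 3' end gave 5.45 times the signal of those at the 5' end for actin in the control sample but 1.85 times in the knockdown sample. For EF1A this ratio was also higher in the control sample, at 2.92, and for GAPDH the samples differed less, with a ratio of 1.05 in the knockdown sample. In pooled RNA, fewer cells of a type and less RNA per cell cannot be told apart.

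Respiratory chain genes had nearly the same signal on both arrays. Of the 87 genes, 85 were measured, and 81 of these lay within 1.5-fold. The other 4 were at least 1.5-fold higher in the knockdown, 0 were at least 1.5-fold lower, and 0 passed 2-fold in either direction. Among all 9303 measured genes, 11.4% passed 1.5-fold upward in the knockdown and 5.71% downward, and 3.64% and 1.06% passed 2-fold. The 4 genes were COX15, COX14, COX18 and NDUFAF7, all of them assembly factors. After median centring, described next, 0 of the 85 genes passed 1.5-fold upward and 2 downward. With that scaling, 553 of all 9303 measured genes did so upward and 1383 downward. The 2 genes that were not measured were ATP5G2 (84.1 in the control and 55.7 in the knockdown) and COX7B (77.7 and 73.9).

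Within this narrow range most ratios had the same sign as deposited. The median log2 ratio of the 85 genes was 0.15, with 64 above 0 and 21 below, but it was -0.099, with 25 above and 60 below, when the arrays were centred on the median chicken probe set, a scaling that lowers every ratio by the same amount (the median of all genes moved by -0.25). With quantile normalization the median of the 85 genes was 0.18 and with loess centring 0.20, each with 69 above 0 and 16 below. The sign of a respiratory chain ratio near 0 therefore depends on the scaling. Of these scalings, only median centring put the median of the respiratory chain below 0. As deposited, the median of all measured genes was at 0.02, which is 0.13 below that of the respiratory chain. This gap was 0.21 with quantile normalization and with loess centring, 0.065 with each probe set on its own, 0.039 when measured probe sets of a gene were averaged and 0.028 when all were. As deposited, the interquartile range of all measured genes was 0.51, against 0.27 for the respiratory chain. Of the genes past 1.5-fold among all measured genes, 66.6% were higher in the knockdown as deposited, 28.6% after median centring, 48.8% after quantile normalization and 50.7% after loess centring.

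Most of these genes have strong signals, where ratios spread less. When measured genes were split by mean log2 signal into 10 equal groups, numbered from the dimmest, group 10 held 44 of the 85, and 0 of these 44 passed 1.5-fold, where 0.967% of all genes of that group did so upward and 2.69% downward. Within group 10 the 44 respiratory chain genes were centred on a log2 ratio of 0.11 and the 887 other genes on -0.065. In group 9 the medians were 0.21 for 14 respiratory chain genes and -0.061 for 916 others, and in group 6 they were 0.15 for 11 and -0.022 for 919. Taking each gene against the median of the other genes in its own group, 72 of 85 lay above it, and the median difference over the 85 was 0.19. That count is unaffected by a constant shift of 1 array, but a shift that differs between transcripts could change it. The comparison by signal group, used again below, was not among the planned results. It was made only as deposited, with the brightest probe set of each gene. Averaging probe sets, which narrowed the gap to all genes, was not tried for it, and no test of it was possible with these 2 samples.

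**Figure D1:**
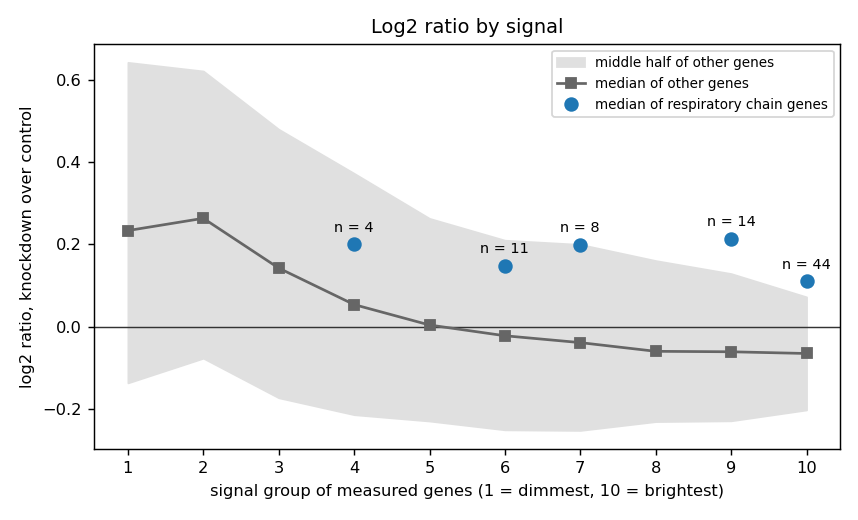
Log2 ratio of knockdown over control (y axis) against the group of measured genes by mean log2 signal (x axis, from 1, the dimmest, to 10), as deposited. Squares are medians of the other genes with their middle range shaded, and circles are medians of respiratory chain genes in groups that hold at least 4 of them; all circles lie above the squares of their group, 0.11 against -0.065 in group 10.

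Complex I is the entry point for electrons from NADH, and all 34 of its structural subunits here were within 1.5-fold, with a median log2 ratio of 0.16 (-0.085 after median centring). The catalytic core was represented by 6 genes with a median of 0.26. NDUFV1, which binds NADH and flavin, had a control signal of 7065 and a knockdown signal of 9725 (log2 ratio 0.46). NDUFV2, its iron-sulphur partner, had 7314 and 8861 (0.28). These were both higher in the knockdown, and so were the iron-sulphur subunits close to the coenzyme Q site. NDUFS8 had 6586 and 9108 (0.47), the highest log2 ratio of any measured structural subunit, and NDUFS7 had 6012 and 7110 (0.24). NDUFS1, the iron-sulphur subunit next to NDUFV1, went the other way, with 16616 and 14835 (-0.16), and its other 2 measured probe sets lay at 0.0016 and 0.16. NDUFS3 had 2204 and 2093 (-0.074), so 4 of the 6 core genes were above 0 and 2 below.

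The 28 accessory subunits of complex I, which surround the core and include proteins needed for its stability, had a median of 0.15, with 21 above 0 and 7 below. NDUFB7, of the membrane arm, had a control signal of 6003 and a knockdown signal of 8288 (log2 ratio 0.47). NDUFA5, of the matrix arm, had 5930 and 7443 (0.33), and NDUFS5 had 359 and 446 (0.31). At the low end NDUFB2 had 8106 and 6407 (-0.34), and NDUFA10 had 19329 and 15972 (-0.28). NDUFS4, a matrix arm subunit mutated in human Leigh syndrome, had 3514 and 3119 (-0.17). The lowest of these genes were thus still within 1.5-fold. The 10 NDUFB genes had a median of 0.23 and the 13 NDUFA genes, with NDUFA4 among them, one of 0.11. NDUFA4, which bears a complex I name but is known as a subunit of complex IV, had 36847 and 37968 (0.043). NDUFAB1, the mitochondrial acyl carrier protein, had 22355 and 24372 (0.12).

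Of the 8 complex I assembly factors, 6 lay above 0, with a median of 0.13 over all 8. NDUFAF7, a methyltransferase that acts on a core subunit, had a control signal of 860 and a knockdown signal of 1528 (log2 ratio 0.83), the highest ratio of all 85 genes. NDUFAF6 had 1748 and 2343 (0.42), and NDUFAF4 had 2596 and 3212 (0.31). NDUFAF1, an early assembly factor, was even, with 13806 and 13733 (-0.0076), and NDUFAF2, NDUFAF3 and NDUFAF5 lay between -0.056 and 0.013.

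**Figure D2:**
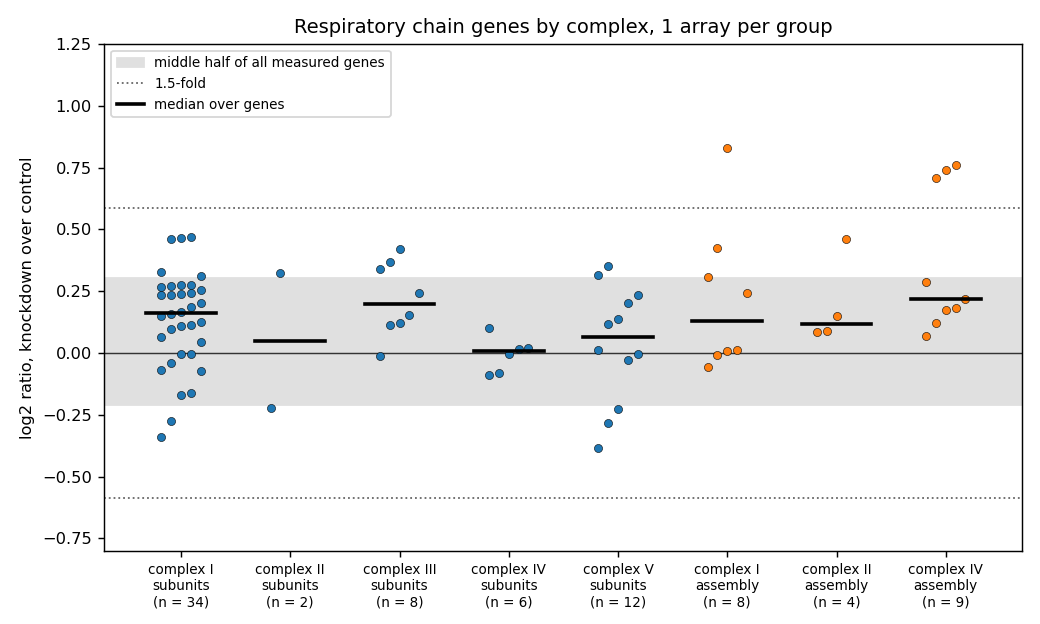
Log2 ratio of knockdown over control (y axis) for each measured gene (points), by complex and class, with the median of each class as a bar; the shaded band is the middle range of all measured genes and dotted lines mark 1.5-fold. As deposited, every class median is above 0, from 0.0075 for complex IV subunits to 0.22 for complex IV assembly factors, and median centring puts the medians of all 5 classes of subunits below 0; 4 assembly factors lie past 1.5-fold.

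Complex II was covered by 2 structural subunits, which differed in direction. SDHA, the flavoprotein that oxidises succinate, had a control signal of 13929 and a knockdown signal of 11919 (log2 ratio -0.22). SDHD, a membrane anchor, had 14767 and 18478 (0.32). Neither passed 1.5-fold. By their brightest probe sets the 4 assembly factors of complex II were all above 0. SDHAF4 had 2221 and 3058 (0.46), and the others lay between 0.084 and 0.15. Another probe set of SDHAF4 had 926 and 839 (-0.14). Other measured probe sets of SDHAF2 gave 0.15 and 0.64.

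Complex III subunits had the highest median of the structural classes as deposited, 0.20 over 8 genes, with 7 above 0 and all 8 above the median of the other genes in their signal group (median -0.049 after median centring). That median was 0.36 when the probe sets of a gene were averaged and 0.31 with each probe set on its own. UQCRB, a small subunit near a coenzyme Q site, had a control signal of 1983 and a knockdown signal of 2652 (log2 ratio 0.42). UQCRFS1, the Rieske iron-sulphur protein, had 10703 and 13809 (0.37), and UQCRQ had 15090 and 19101 (0.34). Other measured probe sets of UQCRB gave 0.67 and 0.025, and another of UQCRFS1 had 154 and 291 (0.92). The 2 core proteins, which hold the matrix side of the complex, were closer to even by their brightest probe sets, though not by their second ones, given further on, with UQCRC2 at 13840 and 16373 (0.24) and UQCRC1 at 20062 and 19905 (-0.011). UQCR10, UQCR11 and UQCRHL lay between 0.11 and 0.15.

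Complex IV subunits had nearly even signals as deposited, while 3 of its assembly factors passed 1.5-fold. The measured subunits other than COX5A were in signal group 10, where ratios spread least. The 3 assembly factors were dimmer, with COX14 in group 2 and COX15 and COX18 in group 6. The 6 measured subunits lay between -0.088 and 0.10, with a median of 0.0075 that was -0.24 after median centring. COX4I1, a subunit that takes part in regulation by ATP, had a control signal of 36708 and a knockdown signal of 37256 (log2 ratio 0.021). COX6A1 had 32062 and 32000 (-0.0028), COX8A had 18476 and 18705 (0.018), and COX6C had 27650 and 29678 (0.10). COX7C, with 35469 and 33375 (-0.088), and COX5A, with 1925 and 1821 (-0.080), were the lowest by their brightest probe sets. A second measured probe set of COX5A gave 0.20. COX6A2 and COX7A1, the isoforms of heart and skeletal muscle in mammals, and COX4I2 and COX6B2 were not matched by symbol and were not analysed here.

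By their brightest probe sets the 9 assembly factors of complex IV all had ratios above 0, with a median of 0.22. Of the 9, 3 passed 1.5-fold upward, where 11.4% of all measured genes did. The upper quartile of the other genes was 0.62, itself past 1.5-fold, in group 2, which holds COX14. In group 6, which holds COX15 and COX18, it was 0.21. COX15, which makes heme A, had a control signal of 1243 and a knockdown signal of 2105 (log2 ratio 0.76). COX18, which inserts a mitochondrially made subunit into the membrane, had 1736 and 2838 (0.71). COX14, which acts on a newly made core subunit, had 179 and 299 (0.74). In the order of the pathway, COX10, which acts before COX15 in heme A synthesis, was closer to even at 2352 and 2560 (0.12), and the copper factors COX17, COX11 and COX19 lay between 0.17 and 0.22. A second measured probe set of COX19 had 305 and 240 (-0.35). COX16 was at 0.29 and COX20 at 0.068. COX14, COX15 and COX18 each rest on 1 measured probe set, as does NDUFAF7. Over the 21 assembly factors of all complexes, 19 were above 0 with a median of 0.18 (-0.065 after median centring), and 20 lay above the median of the other genes in their signal group. For the 62 structural subunits the corresponding numbers were 43 above 0, a median of 0.12, and 50 above that median. The difference between assembly factors and subunits was not tested.

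**Figure D3:**
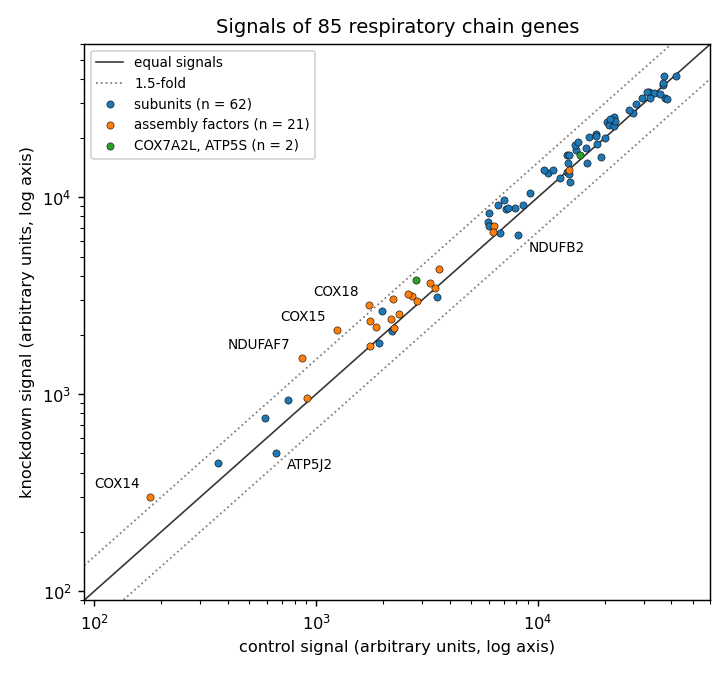
Signal on the knockdown array (y axis) against signal on the control array (x axis) for the 85 measured genes, both in arbitrary units on log axes; colours mark subunits, assembly factors and the 2 genes with the prefix only, the solid line equal signals and dotted lines 1.5-fold. The 4 points past the upper dotted line are COX14, COX15, COX18 and NDUFAF7, and none lies past the lower line.

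Complex V subunits lay on both sides of 0, with a median of 0.065 over 12 measured genes (-0.18 after median centring), 7 above and 5 below. In the catalytic head, ATP5B, the beta subunit, had a control signal of 37515 and a knockdown signal of 32084 (log2 ratio -0.23). ATP5F1AZ, the alpha subunit, had 38356 and 31486 (-0.28). Both large subunits of the head were lower in the knockdown, while the small ones were not. ATP5C1, the gamma subunit of the rotor, had 22136 and 25478 (0.20), and ATP5E, the epsilon subunit, had 590 and 753 (0.35). ATP5F1AZ lies on the sex chromosome Z and has a close copy on W, so its probe set may read both copies, and the labels used here do not give the sexes of the embryos.

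The peripheral stalk, which holds the head still, had 4 genes with a median of 0.13. ATP5J had a control signal of 748 and a knockdown signal of 932 (log2 ratio 0.32), ATP5PB had 31136 and 34263 (0.14), and ATP5H and ATP5O lay at 0.12 and -0.0060. A second measured probe set of ATP5J had 392 and 352 (-0.15). Of the genes of the membrane part, ATP5G1 and ATP5G3 encode the ring subunit that carries protons. ATP5G1 had 20424 and 23993 (0.23) and ATP5G3 had 42068 and 41239 (-0.029), while ATP5I was even at 0.012. ATP5J2 had 658 and 503 (-0.39), the lowest ratio of the 85 genes, but its other 4 measured probe sets ran from -0.17 to 0.44. ATP5S had 2832 and 3798 (0.42), and COX7A2L had 15516 and 16443 (0.084).

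Probe sets of the same gene did not always give the same ratio. Of the 154 probe sets, 129 were measured, and of these 11 passed 1.5-fold upward and 2 downward, where 16.9% and 5.45% of all measured probe sets with 1 symbol were. Among the 30 genes with several measured probe sets the pooled standard deviation within a gene was 0.48 on the log2 scale. For all 3853 such genes it was also 0.48. This is larger than the size of the log2 ratio of 81 of the 85 genes. The pooled value gives most weight to wide ranges, and the widest were 2.26 for UQCRC1 and 1.78 for UQCRC2. The median range within a gene was 0.37 for the 30 genes and 0.53 for the 3853. A range over 1.5-fold was found in 10 of the 30 and in 1770 of the 3853. In the 30 genes, the probe sets with the highest signal had a median of 0.15 and the other 44 one of 0.13. Over all genes those medians were -0.049 and 0.21, so the gap in medians between brighter and dimmer probe sets seen across the array was not seen in this group. Of the 44 dimmer probe sets, 7 (15.9%) were still at least 1.5-fold higher and 2 (4.55%) lower. Over all genes 26.1% and 5.02% of the dimmer probe sets were.

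The largest disagreement was in the 2 core proteins of complex III. A second probe set of UQCRC1 had a control signal of 856 and a knockdown signal of 4066, 4.75-fold higher, beside the even signals of the brighter one. A second probe set of UQCRC2 had 1059 and 4297, 4.06-fold higher, beside a log2 ratio of 0.24. These are the only 2 measured probe sets of the group past 2-fold. The sources used here do not give which transcripts they read. Of the other genes, NDUFB2 had ratios of -0.34 and 0.74, NDUFA13 -0.042 and 0.84, NDUFA7 -0.63 to 0.28, NDUFB3 -0.41 to 0.23 and SDHAF4 -0.14 and 0.46, so that 7 genes, with ATP5J2 and UQCRC1, had measured probe sets on opposite sides of 0 and over 1.5-fold apart. COX7C had a second probe set at 776 and 456 (-0.77). With measured probe sets of a gene averaged, 7 of the 85 genes were at least 1.5-fold higher in place of 4, and 2 of them passed 2-fold. Averaged in the same way, 1221 of all 9303 measured genes were at least 1.5-fold higher in place of 1061, and 346 passed 2-fold upward.

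**Figure D4:**
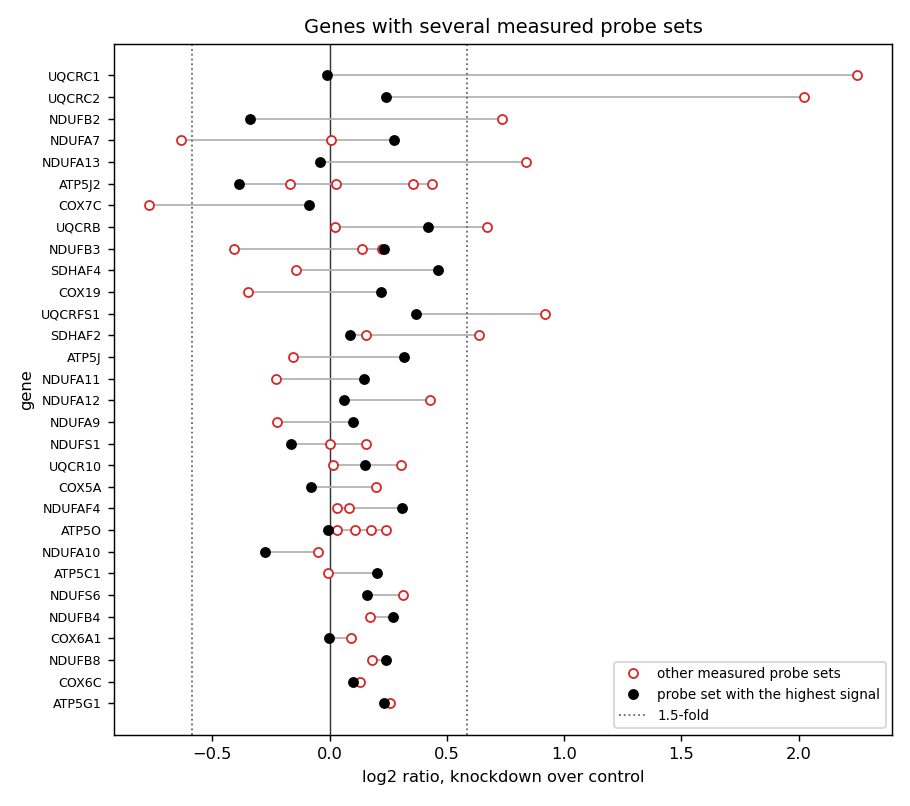
Log2 ratio of knockdown over control (x axis) of every measured probe set of the 30 genes with several (y axis), sorted by range; filled points are the probe set with the highest signal and open points the others, with dotted lines at 1.5-fold. UQCRC1 and UQCRC2 each have an open point past 2 while their filled points lie at -0.011 and 0.24.

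Lists of related mitochondrial genes differed from one another in median and in spread. CYCS, cytochrome c, the carrier between complexes III and IV, had a control signal of 20351 and a knockdown signal of 24722 (log2 ratio 0.28), and its second probe set gave 0.35. Of 39 electron carriers and other assembly factors, all measured, 8 passed 1.5-fold upward and 1 downward, where 11.4% and 5.71% of all measured genes did, with a median of 0.31 (0.062 after median centring). LRPPRC, which stabilises mitochondrial messenger RNAs, had 100 and 236 (1.24). SCO1, a copper chaperone of complex IV, had 70.4 and 254 (1.85), with a control signal barely above background. LRPPRC and SCO1, both among the 8, had control signals below 118 and counted as measured through their knockdown signals. NUBPL, an iron-sulphur factor of complex I, had 748 and 1278 (0.77), with its second measured probe set at 0.79, and COQ10B had 689 and 1317 (0.94). The gene past 1.5-fold downward, COA5, had 7604 and 5048 (-0.59). It has 4 probe sets, and only the brightest is given here. CYC1 and the mitochondrially encoded subunits were not matched by symbol and were not analysed here.

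The mitochondrial ribosome makes the few subunits encoded in mitochondrial DNA. Of its 65 measured genes, 51 lay above 0, with a median of 0.18 (-0.066 after median centring), and 6 passed 1.5-fold upward and 0 downward, where 11.4% and 5.71% of all measured genes did. MRPL19 had a control signal of 1709 and a knockdown signal of 3524 (log2 ratio 1.04), and MRPL10 had 2163 and 3679 (0.77). In all, 52 of the 65 lay above the median of other genes in their signal group, against 72 of 85 for the respiratory chain. Of 35 measured genes of mitochondrial import and the inner membrane, 2 were at least 1.5-fold higher, where 11.4% of all measured genes were. The 2 were TOMM34 (333 and 642, log2 ratio 0.95) and TIMM23B (3998 and 7560, 0.92), and the median over the 35 was 0.084. A second measured probe set of TIMM23B had 1284 and 1386 (0.11). OPA1, which fuses inner membranes, was the lowest at 8885 and 6098 (-0.54). Another of its measured probe sets had 5937 and 4606 (-0.37), but a dimmer one had 269 and 403 (0.58).

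Genes that feed the chain and genes of its control had medians close to 0 as deposited and below 0 after median centring. The 14 measured genes of pyruvate dehydrogenase and the tricarboxylic acid cycle had a median of 0.072 (-0.17 after median centring). MDH2, mitochondrial malate dehydrogenase, had a control signal of 11438 and a knockdown signal of 24725 (log2 ratio 1.11), but its second measured probe set had 433 and 241 (-0.85). DLAT had 176 and 125 (-0.50). Over the 20 genes of glycolysis and lactate transport the median was -0.0071 (-0.25 after median centring). Of these 20, 0 passed 1.5-fold, where 11.4% of all measured genes did so upward and 5.71% downward. LDHA and LDHB, the lactate dehydrogenases, had log2 ratios of -0.049 and -0.016, GAPDH had -0.18, and ALDOC and the lactate transporter gene SLC16A1 were the extremes at 0.57 and -0.50. Among 15 regulators of mitochondrial biogenesis the median was -0.013 as deposited, -0.26 after median centring and 0.17 with each probe set on its own. Of these 15, 2 passed 1.5-fold upward and 0 downward, where 11.4% and 5.71% of all measured genes did. These 2 were POLG, the mitochondrial DNA polymerase, with 150 and 261 (0.80), and the nuclear receptor gene ESRRG, with 493 and 815 (0.73) and a second measured probe set at -0.44. TFAM, which packages and transcribes mitochondrial DNA, had 9843 and 11176 (0.18). PPARGC1A, a coactivator of these genes, had 418 and 429 (0.038). The transcription factors NRF1 and GABPA, which bind many respiratory chain promoters in mammals, had log2 ratios of -0.43 and -0.20, with second probe sets of higher ratio.

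**Figure D5:**
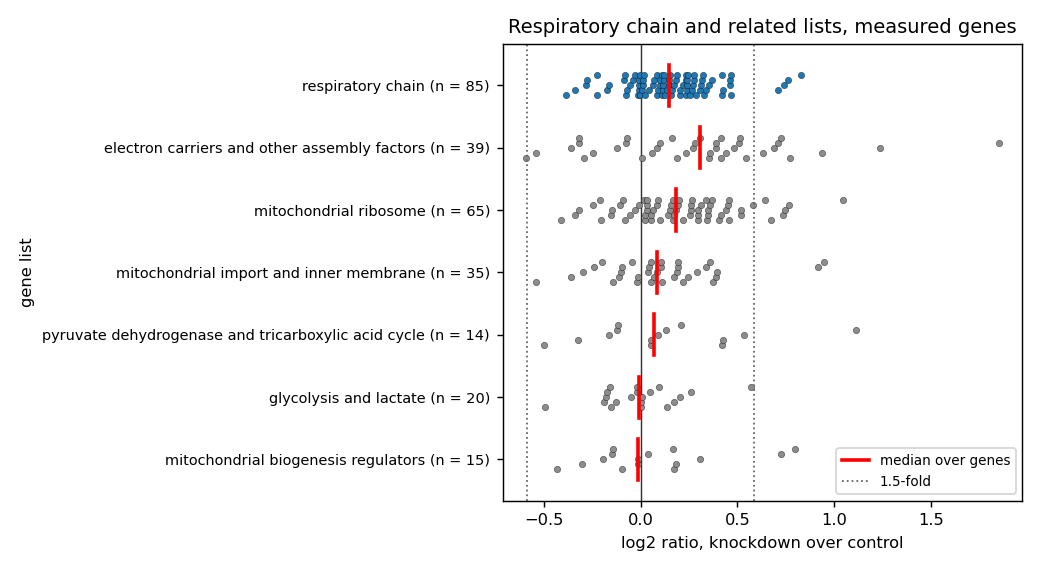
Log2 ratio of knockdown over control (x axis) of each measured gene (points) of the respiratory chain and 6 related lists (y axis), as deposited, with medians as bars and dotted lines at 1.5-fold. The medians of the respiratory chain (0.15) and the mitochondrial ribosome (0.18) lie above 0, and below it after median centring, while glycolysis (-0.0071) and biogenesis regulators (-0.013) lie near 0 as deposited and at -0.25 and -0.26 after median centring.

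Markers of neurons and of tissues outside the neural tube had median log2 ratios farther from 0 than the respiratory chain, while neural progenitor markers had one of -0.16, with 8 of 9 below 0 and SOX2 at 0.76. All 9 matched progenitor markers of the neural tube were above background on both arrays, with a summed control signal of 134638 and a knockdown signal of 114507. Of 7 neuronal markers, 7 were lower in the knockdown, 6 of them by at least 1.5-fold, where 5.71% of all measured genes were. The summed signals of the 7 were 71907 and 40789. TUBB3, neuronal tubulin, had 1240 and 634. Most measured markers of other tissues had higher signal in the knockdown. Among the exceptions were MYOD1 (log2 ratio -0.36), TFAP2A (-0.41), FOXA2 (-0.18) and CLDN5 (-0.0028), and EPCAM was nearly even (0.0093). Of 12 measured muscle and heart markers, which belong to tissues rich in mitochondria, 10 passed 2-fold upward and 0 downward. Among all measured genes, 3.64% and 1.06% did. MYL2 (42.8 in the control and 329 in the knockdown), MYL3 (88.6 and 461) and MYF5 (108 and 272) had control signals below 118. They counted as measured through their knockdown signals. For MYL2, among the 10 past 2-fold, the control signal also lay below the background of 63.6. MYH7, with 71.3 and 10.9, was not measured and went the other way. Summed signals over the 16 matched genes were 11210 and 28668. ACTC1, cardiac actin, had 559 and 6647, while NKX2-5 lay below background on both arrays. Of 6 measured blood markers, 5 were at least 2-fold higher, with summed signals over 7 of 27172 and 63072. SLC4A1, among the 5, had a control signal of 108 and counted as measured through its knockdown signal of 305. Endothelial markers summed to 1426 and 3023 over 8, surface ectoderm markers to 4925 and 7194 over 6, and notochord and endoderm markers to 3006 and 5159 over 8. The part of these cells in the respiratory chain values was not tested.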

How the data were processed

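The deposited values are probe set intensities on a linear scale, and per the submitters' processing notes they came from MAS5 5.0; the equal trimmed means show that the authors had scaled the arrays. No detection calls were used. Of 37693 chicken probe sets, 27166 had 1 symbol, 177 several and 10350 none. Symbols came from the platform annotation, updated by Entrez number through a RefSeq table of GRCg7b (86 of the 87 genes matched; NDUFB7 kept its platform name), from which no coordinates were used. Log2 was taken once. Groups followed the labels, and with 1 sample per group no test was made. Genes were counted past 1.5-fold and 2-fold.

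The members and lists were chosen with earlier results of these data known. The genes named come from the extremes of each class, members past 1.5-fold or with opposed probe sets, fixed examples and the largest ratios of each related list. The computation was tested on simulated data with little noise and with changes larger than those of the respiratory chain genes. That checks the code and says nothing about ratios of the size reported here. Alternatives were scalings, a constant (11.2) added, a floor at background, filters and probe set rules. Python 3.11.15, pandas 2.3.3 and statsmodels 0.14.6 (loess span 0.3) were used.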

Additional observations from a re-analysis of the deposited data

How the results depend on the processing

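No paired analysis was possible because each group holds 1 sample. A median counts as moved when it leaves the 95% exact binomial interval of the reported median over genes, and a count when it changes by over 1.5 times. That interval describes genes and not samples, and it is wide for small sets. For the 2 subunits of complex II their full range was used in its place, and for the 8 of complex III it runs from -0.011 to 0.42. Of 223 recomputed values, 165 did neither, 37 moved and 21 changed sign; the causes were not tested beyond what each alternative does by construction. Median centring turned the medians of the respiratory chain (-0.099), of complexes I to V (-0.085, -0.20, -0.049, -0.24 and -0.18), of assembly factors (-0.065), the tricarboxylic acid cycle (-0.17), the mitochondrial ribosome (-0.066) and import (-0.16) below 0, and moved those of electron carriers (0.062), glycolysis (-0.25) and biogenesis regulators (-0.26). It gave 2 respiratory chain genes at least 1.5-fold lower and 0 higher, and over all genes 1383 lower and 553 higher by 1.5-fold and 269 and 162 by 2-fold. The median of complex IV subunits was -0.0028 without a filter and with a filter at the 25th percentile, where 1 respiratory chain gene, ATP5G2, was at least 1.5-fold lower. The knockdown signal of ATP5G2, 55.7, lay below background. The median of biogenesis regulators was 0.015 with quantile normalization, 0.012 with loess, 0.013 without a filter and at the 25th percentile, 0.059 when all probe sets were averaged, 0.14 when measured ones were and 0.17 with each probe set on its own. Glycolysis was at 0.0086 and 0.028 with those 2 means. With the mean of all probe sets, 10 of 85 respiratory chain genes were at least 1.5-fold higher, where 1226 of all 7840 genes were. With the mean of measured ones 7 of 85 were, where 1221 of all 9303 were. Among the 62 structural subunits 0 were. Of 129 probe sets on their own, 11 were higher and 2 lower by that fold. All genes past 2-fold, lower and higher, were 168 and 209 with quantile normalization and 162 and 220 with loess. Lower and higher by 1.5-fold, then by 2-fold, they were 1350, 2462, 652 and 1300 of 13008 without a filter. In the same order they were 925, 1862, 316 and 815 of 11630 at the 25th percentile and 293, 285, 46 and 71 of 5883 at the 75th. Over 14899 probe sets the counts were 812, 2519, 158 and 863. The median of all measured respiratory chain genes exceeded that of the other genes in the brightest signal group by 0.21 as reported and by 0.13 to 0.21 under the alternatives. This comparison was chosen after seeing the data, and its lowest value, 0.13, came with the mean of measured probe sets. It was not matched for signal, since 41 of the 85 genes lay outside that group as reported. Within that group the medians were 0.11 for respiratory chain genes and -0.065 for the others. Signal near background limits SCO1, COX14 and the probe sets left out as not measured.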

Other observations

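Coenzyme Q, the carrier that takes electrons from complexes I and II, is made by the COQ genes, a group singled out after its values were seen. Of 9 measured COQ genes, 3 were at least 1.5-fold higher in the knockdown and 0 at least 1.5-fold lower, beside 11.4% and 5.71% of all measured genes, with a range wide enough that 6 lay above 0 and 3 below. COQ7, a hydroxylase of the pathway, had a control signal of 2206 and a knockdown signal of 3418 (log2 ratio 0.63), COQ4 had 516 and 832 (0.69), and COQ10B, which binds coenzyme Q, is given above. COQ8A, an atypical kinase of the pathway, had 14994 and 10325 (-0.54), the lowest of the group. The array holds 2 probe sets for COQ8A and 3 for COQ7, and only the brightest of each is given here.

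Of the 154 probe sets of the respiratory chain, 25 were not measured. Over all 154, 11 lay below background on both arrays and 7 on 1 array. No fold is given for these, except that ATP5G2, below background in the knockdown, was counted past 1.5-fold where the filter was loosened.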
